A study of Mus musculus with 9 samples.

Results

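The transcripts described here encode the nuclear-encoded subunits of the mitochondrial respiratory chain and ATP synthase in mouse hearts. The members were taken by gene name, as every name that begins with Nduf and a letter a, b, c, s or v before a number, the names Sdha, Sdhb, Sdhc and Sdhd, and every name that begins with Uqcr, with Cox4 to Cox8 or with Atp5, leaving out 1 pseudogene name (Cox5b-ps). This gave 87 of 41710 gene names, of which 39 belong by name to complex I, 4 to complex II, 8 to complex III, 18 to complex IV and 18 to complex V. The hearts came from male FVB/N mice at 8 months of age, in 3 groups of 3 hearts. Tg-RKIP mice carry a transgene for the RAF kinase inhibitor protein RKIP, encoded by Pebp1, under the alpha-MHC promoter, which is active in cardiomyocytes. The label Tg-GRK2 stands for a transgene for the G protein-coupled receptor kinase GRK2, whose promoter is not given in the sources used here. Non-transgenic FVB mice of the same sex and age served as controls, and each library is RNA of a whole heart, so that a change in the number of cardiomyocytes and a change in RNA per cardiomyocyte cannot be told apart.

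Oxidative phosphorylation takes place in the inner mitochondrial membrane. Complex I (NADH dehydrogenase) and complex II (succinate dehydrogenase) pass electrons to ubiquinone, complex III passes them to cytochrome c and complex IV (cytochrome c oxidase) passes them to oxygen, while complexes I, III and IV pump protons that drive complex V (ATP synthase). Except for complex II, each complex combines nuclear-encoded subunits with a few subunits encoded by mitochondrial DNA, and the heart is among the tissues richest in these complexes.

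Each library held between 25458108 and 33447654 reads assigned to transcripts. Reads of mitochondrially encoded genes made up 22.9 to 23.2% of the FVB libraries, 22.4 to 22.9% of those labelled Tg-GRK2 and 11.5 to 11.8% of the Tg-RKIP libraries. Pebp1 stood at 8262 ± 127 CPM (counts relative to library size) in Tg-RKIP hearts, 294 ± 4.23 in FVB hearts and 279.9 ± 5.66 in hearts labelled Tg-GRK2 (mean ± s.d., n = 3), scaled with TMM, a method that sets the bulk of genes equal between libraries. Summed over its transcripts, mouse Grk2 stood at 54.3 ± 2.11 CPM in FVB libraries and 56.4 ± 1.83 CPM in those labelled Tg-GRK2 and was not called (adjusted p = 0.354). Of its 9 listed transcripts, Grk2_5 had 280, 420 and 306 reads in FVB libraries against 503, 499 and 638 in those labelled Tg-GRK2. As the gene total did not bear out the label, these samples are called by their label throughout.

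Members that were tested numbered 84. Cox8c and Ndufb11b had 0 reads in all 9 libraries and Cox7b2 had 3 to 8, so these 3 names were left out by the filter on low counts. Some single values are uncertain. Atp5o is listed as Atp5o_1 and Atp5o_2, which overlap and were kept apart, and Ndufa4l2, Ndufb1, Ndufb2, Ndufs1, Ndufs6 and Atp5j overlap other genes whose reads the deposited counts may share. In FVB hearts the subunit transcripts were abundant. Among complex I members the median level was 473 TPM and the highest was 2375 TPM for Ndufa4. Complex II members lay between 475 TPM (Sdhd) and 797 TPM (Sdhb), and complex III members between 548 TPM (Uqcr10) and 1234 TPM (Uqcrh). Complex IV members ran from 2.37 TPM for Cox6b2 to 3160 TPM for Cox4i1, while complex V reached 4023 TPM for Atp5b, the catalytic beta subunit of ATP synthase.

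Most nuclear-encoded subunit transcripts were lower in Tg-RKIP hearts than in FVB hearts. With TMM scaling, 77 of 84 members fell and 4 rose, where 37.1% of all 15504 genes fell and 36.8% rose. Scaling to total reads gave 53 lower and 16 higher, where 17.1% of all genes were lower and 62.6% higher. The deposited TPM gave 44 lower and 17 higher, where 14.6% of the 13478 genes tested were lower and 66.3% higher (limma, log2(TPM + 0.1)). The median log2 fold change was -0.52 over the members and 0.01 over all genes. Scaling to total reads moved the median of all genes to 0.38 and that of the members to -0.14, and with TPM these medians were 0.43 and -0.10. Relative to the median of all genes the members therefore stood at -0.53 with TMM, -0.53 with total reads and -0.52 with TPM, and 79 of the 84 members lay below the median of all genes under each of these scalings. A change of library scaling shifts all genes nearly alike, so this agreement largely follows from the calculation and adds no separate evidence. The 3 libraries of each group did not overlap for 76 members that were lower in Tg-RKIP hearts, against 37.7% of all genes. Here and below, such overlap was judged on TMM-scaled RPKM for the members and on TMM-scaled CPM for all genes. The values below are on the TMM scale unless stated otherwise.

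**Figure D1:**
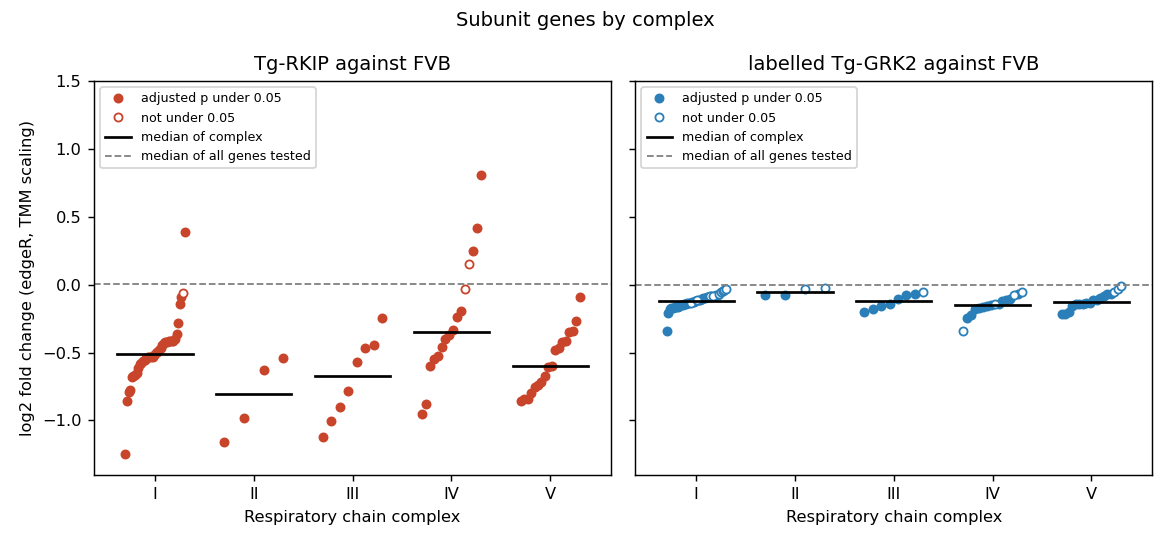
log2 fold change (y axis, TMM scaling) of each tested subunit gene, grouped by complex (x axis), for Tg-RKIP against FVB on the left and the libraries labelled Tg-GRK2 against FVB on the right. Filled points passed an adjusted p of 0.05, black bars are medians, and the dashed line is the median of all genes tested. In Tg-RKIP hearts complex II has the lowest median (-0.81) and complex IV the highest (-0.35), and scaling to total reads raises all Tg-RKIP points alike, which brings the median of complex IV to 0.02.

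The complexes differed in how far their summed transcripts fell. Complex II was lowest, at 55.6 ± 0.38% of the FVB mean in Tg-RKIP hearts (s.d., n = 3). Complex III stood at 64.1 ± 0.92% and complex V at 65.4 ± 0.69%, and the Tg-RKIP libraries ran from 0.630 to 0.648 and from 0.647 to 0.661 of FVB, with complex III below complex V in each library. Complex I followed at 69.5 ± 0.85% and complex IV was the least reduced at 74.2 ± 0.59%, where the FVB libraries themselves varied by 1.48 to 2.62% (s.d.). On the scale of the deposited TPM the order of complexes II, III, V, I and IV was the same but every value was nearer to FVB, with 74.3 ± 0.51% for complex II, 85.6 ± 0.59% for complex III, 87.3 ± 0.26% for complex V, 92.8 ± 0.47% for complex I and 99.2 ± 0.04% for complex IV. By genes, 4 of 4 members fell in complex II, 8 of 8 in complex III, 18 of 18 in complex V, 36 of 38 in complex I and 11 of 16 in complex IV. With scaling to total reads these counts were 4, 7, 12, 24 and 6, and members called higher numbered 0, 1, 2, 5 and 8, where the 62.6% of all genes that were higher with that scaling exceeds the share of higher members in each complex.

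**Figure D2:**
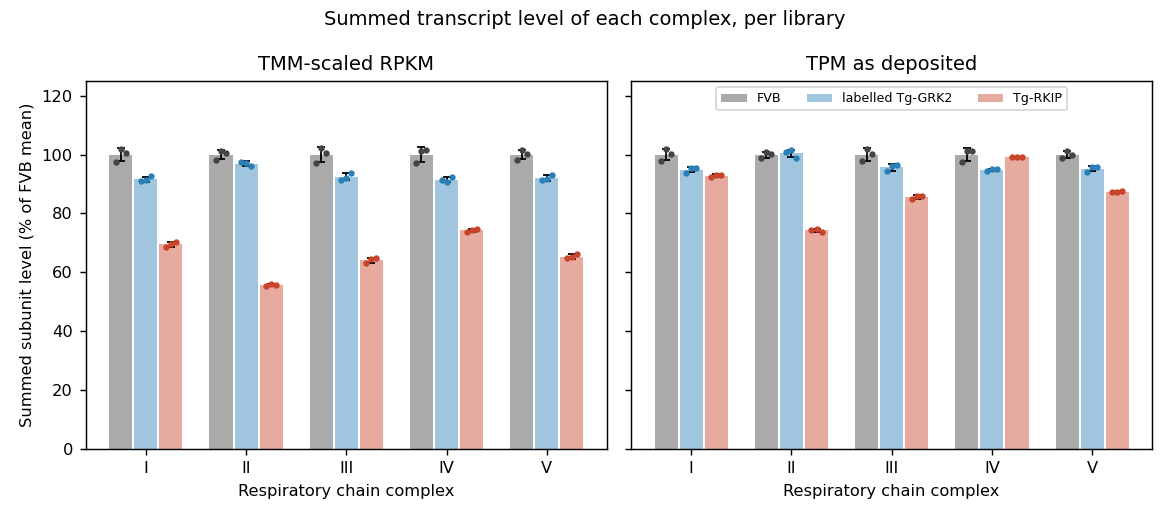
Summed level of the subunit transcripts of each complex (x axis) as a percentage of the FVB mean (y axis), with TMM-scaled RPKM on the left and TPM as deposited on the right. Bars are group means, points are the 3 libraries and error bars are s.d. The Tg-RKIP bars run from 55.6% (complex II) to 74.2% (complex IV) on the left and from 74.3% to 99.2% on the right.

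Complex II oxidises succinate and is the only member of the chain that is also an enzyme of the tricarboxylic acid cycle. Sdha, its flavoprotein (chr13:74470373-74498399 in the deposited table, build GRCm39), had TMM-scaled RPKM of 498, 497 and 494 in FVB hearts, 489.8, 491 and 488 in hearts labelled Tg-GRK2 and 224, 224 and 223 in Tg-RKIP hearts. The 3 Tg-RKIP libraries lay far below all others, with a log2 fold change against FVB of -1.16 ± 0.015 (SE, adjusted p = 2.81e-24). Sdhb, the iron-sulphur subunit, had 572, 592 and 579.9 in FVB, 547, 551 and 557 in hearts labelled Tg-GRK2 and 291, 295 and 297 in Tg-RKIP hearts, a log2 fold change of -0.98 ± 0.018 (adjusted p = 9.67e-22). The membrane anchors fell less, Sdhc by 0.63 ± 0.018 and Sdhd by 0.54 ± 0.019 on the log2 scale. The anchors were 342 to 350.3 (Sdhc) and 234 to 241 (Sdhd) in Tg-RKIP hearts against 539 to 572 and 342 to 352 in FVB hearts.

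In complex I the catalytic core fell in full. All 7 core members, which carry the flavin and the iron-sulphur clusters, were lower in Tg-RKIP hearts, with a median log2 fold change of -0.62, against a median of -0.47 over the 31 tested accessory members, of which 29 fell and 1 rose. Ndufs1, the largest core subunit (chr1:63182755-63215992, GRCm39), showed the lowest value of all members. It had 368, 372 and 366 in FVB, 349, 348 and 351 in hearts labelled Tg-GRK2 and 154, 154 and 155 in Tg-RKIP hearts, a log2 fold change of -1.25 ± 0.016 (adjusted p = 2.15e-24). The span of Ndufs1 overlaps Eef1b2, which had 48007 reads over all libraries against 192200 for Ndufs1. Ndufv2, a subunit of the NADH-oxidising arm, had 518, 537 and 522 in FVB and 304, 310.1 and 308 in Tg-RKIP hearts, with a log2 fold change of -0.77 ± 0.019 (adjusted p = 2.35e-19). Its partner Ndufv1, which binds NADH, stood at -0.67, and Ndufs8, Ndufs7 and Ndufs3 at -0.62, -0.54 and -0.54. Ndufa4, counted here with complex I by name although its protein is now regarded as part of complex IV, was the most abundant of these transcripts and fell by 0.65 ± 0.022 on the log2 scale.

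Among accessory members of complex I, Ndufs4 (-0.86) and Ndufa10 (-0.79) were lowest. Ndufb3 had 210.3, 232 and 223 in FVB and 209, 219 and 209 in Tg-RKIP hearts and was not called (log2 fold change -0.06 ± 0.029, adjusted p = 0.0557). Ndufa4l2, a paralogue of Ndufa4 known to be induced by hypoxia, went the other way, with 11.5, 13.9 and 13.1 in FVB, 10.2, 11.5 and 13.8 in hearts labelled Tg-GRK2 and 16.1, 15.8 and 16.4 in Tg-RKIP hearts. The groups did not overlap and the log2 fold change was 0.39 ± 0.066 (adjusted p = 1.96e-05). The span of this gene overlaps that of Shmt2, whose reads equal 269% of those of Ndufa4l2, so the level of Ndufa4l2 is uncertain.

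In complex III, the 3 large subunits had a median log2 fold change of -1.002 and the 5 small ones of -0.47. The part of transcript length in such differences between subunit roles, here and in complexes I and V, was not tested. Uqcrfs1, the Rieske iron-sulphur protein, had 587, 585 and 601 in FVB, 561, 566 and 558 in hearts labelled Tg-GRK2 and 273, 269 and 273 in Tg-RKIP hearts. The Tg-RKIP libraries were below all others and the log2 fold change was -1.12 ± 0.017 (adjusted p = 4.75e-23). The core proteins Uqcrc2 and Uqcrc1 stood at -1.002 and -0.90. Uqcrh, the hinge protein next to cytochrome c1 and the most abundant member in FVB hearts, had 884, 915 and 904 in FVB and 751, 770.0 and 781 in Tg-RKIP hearts and had the highest log2 fold change of the complex, at -0.25 ± 0.024 with TMM and 0.13 with scaling to total reads.

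Complex V transcripts fell in all 18 cases with TMM scaling, and in 12 with scaling to total reads. The catalytic F1 head had a median log2 fold change of -0.84, the peripheral stalk of -0.60, the c ring of -0.60 and the small membrane subunits of -0.42. Atp5b had 2963, 2926 and 2920.2 in FVB, 2693, 2736 and 2731 in hearts labelled Tg-GRK2 and 1881, 1839.8 and 1941 in Tg-RKIP hearts. Its groups were fully separate, with a log2 fold change for Tg-RKIP of -0.84 ± 0.013 (adjusted p = 5.41e-23). Atp5a1, the alpha subunit, had 1859.5, 1862 and 1858 in FVB and 1045, 1042 and 1061 in Tg-RKIP hearts, a log2 fold change of -0.86 ± 0.012 (adjusted p = 1.12e-23). Within the same head, Atp5d, the delta subunit of the rotor stalk, was at -0.27 with TMM. Its mean TPM was 603 in FVB and 669 in Tg-RKIP hearts, so the members of the head did not change alike.

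**Figure D3:**
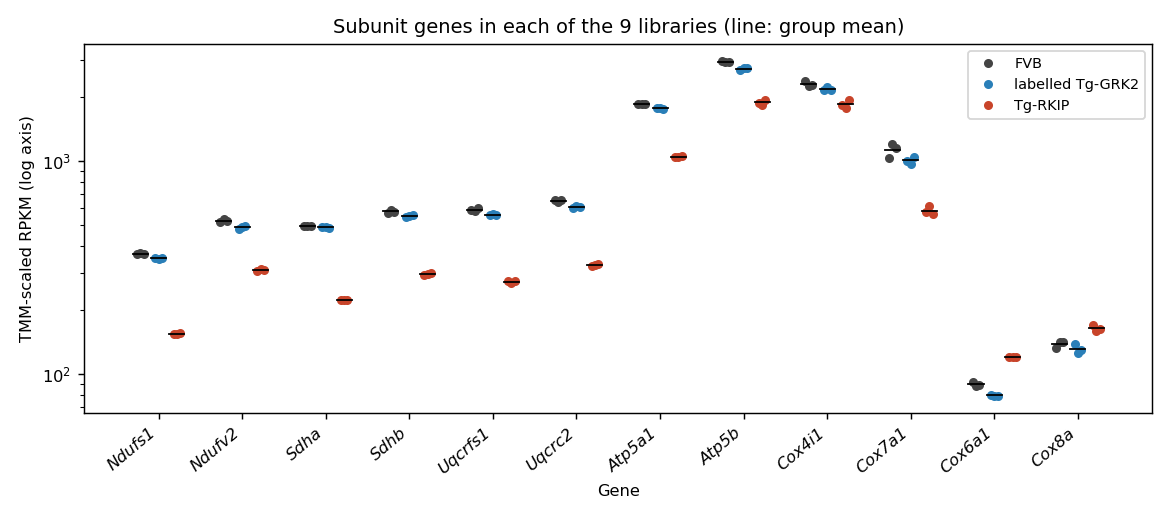
TMM-scaled RPKM (y axis, log axis) of 12 subunit genes (x axis) in each of the 9 libraries, with a black line at each group mean. Ndufs1, Sdha and Uqcrfs1 show the Tg-RKIP libraries at 154 to 155, 223 to 224 and 269 to 273, below all others, while Cox6a1 and Cox8a show them above.

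Complex IV members moved in both directions. The lowest were Cox7a1, at -0.95 ± 0.041 (adjusted p = 4.71e-15), and Cox7b, at -0.88 ± 0.022 (adjusted p = 2.27e-19). Cox7a1 had 1030.2, 1207 and 1149.8 in FVB, 1007, 972 and 1046 in hearts labelled Tg-GRK2 and 575, 615 and 565 in Tg-RKIP hearts. Cox4i1, the most abundant member of the complex and the regulatory ATP-binding subunit, was at -0.33 ± 0.017 with TMM and at 0.04 with scaling to total reads. Cox6b1, which joins the monomers of the enzyme, was at -0.19 with TMM and 0.18 with total reads. Cox7a2l, a factor of supercomplex assembly, had 222, 224 and 222 in FVB and 219, 212 and 222 in Tg-RKIP hearts and was not called (adjusted p = 0.143).

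Several subunits of complex IV exist as isoforms, with a heart and muscle form and a form found in most tissues. The upstream sequences are shown for Cox6a1 and Cox8a, the ubiquitous forms that rose in Tg-RKIP hearts, for Cox7a1, the muscle form that fell most, and for Sdhb, a member of the complex with the lowest sum. Each is the stretch of 250 bases before the transcription start in RefSeq (GRCm38.p6, a different build from that of the deposited table), written 5′ to 3′ on the strand of the gene. The regions are chr5:115348959-115349208 on the minus strand, chr19:7217617-7217866 on the minus strand, chr7:30183921-30184170 on the plus strand and chr4:140961021-140961270 on the plus strand. Capitals mark the letters GCGCATG (the core of the NRF1 motif) and CCGGAAG (an ETS motif, as bound by GABP) on either strand, and the letters AAGGTCA (the ERR motif) were searched as well.
Cox6a1: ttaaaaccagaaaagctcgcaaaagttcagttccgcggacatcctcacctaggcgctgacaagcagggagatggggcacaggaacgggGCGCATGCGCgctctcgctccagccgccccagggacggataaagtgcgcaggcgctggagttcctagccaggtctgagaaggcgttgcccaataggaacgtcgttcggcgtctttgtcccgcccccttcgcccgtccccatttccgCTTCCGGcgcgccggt
Cox8a: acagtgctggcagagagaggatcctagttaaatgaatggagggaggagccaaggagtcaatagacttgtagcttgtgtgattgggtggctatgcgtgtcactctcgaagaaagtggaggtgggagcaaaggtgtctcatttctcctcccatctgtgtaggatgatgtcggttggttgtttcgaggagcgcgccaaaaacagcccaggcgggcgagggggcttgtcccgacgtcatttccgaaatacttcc
Cox7a1: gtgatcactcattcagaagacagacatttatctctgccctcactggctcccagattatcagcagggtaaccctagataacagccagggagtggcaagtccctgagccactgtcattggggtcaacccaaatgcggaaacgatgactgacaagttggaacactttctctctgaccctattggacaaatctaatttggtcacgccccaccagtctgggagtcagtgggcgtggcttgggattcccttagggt
Sdhb: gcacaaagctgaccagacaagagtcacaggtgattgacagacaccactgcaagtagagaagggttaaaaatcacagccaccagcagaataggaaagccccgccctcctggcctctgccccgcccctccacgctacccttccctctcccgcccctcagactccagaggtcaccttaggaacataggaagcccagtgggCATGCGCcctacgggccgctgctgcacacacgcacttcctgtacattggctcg
NRF1, GABP and ERR are factors known to bind promoters of respiratory chain genes. The upstream stretches of Cox8a and Cox7a1 hold none of these letters, that of Cox6a1 holds the NRF1 and ETS letters, with 2 overlapping matches to the former on opposite strands, and that of Sdhb holds the NRF1 letters. Of the 68 members with an entry, 10 (14.7%) held GCGCATG, where 3.68% of all 27025 genes and 4.51% of protein-coding genes did. CCGGAAG was found in 12 members (17.6%, against 7.83% of all genes and 10.2% of protein-coding genes). AAGGTCA was found in 5 (7.35%, against 4.70% of all genes and 4.18% of protein-coding genes). Median log2 fold changes in Tg-RKIP hearts were somewhat less negative in members with the letters than in those without. They were -0.48 and -0.53 for GCGCATG, -0.44 and -0.54 for CCGGAAG and -0.42 and -0.53 for AAGGTCA. These differences rest on 10, 12 and 5 tested members with the letters and were not tested. A match is a description of these letters and no evidence of binding.

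Cox6a1, the ubiquitous form of subunit 6a, had 92.3, 87.8 and 89.2 in FVB, 80.1, 79.3 and 79.0 in hearts labelled Tg-GRK2 and 120.1, 119.9 and 120.4 in Tg-RKIP hearts. The groups were fully separate and the log2 fold change against FVB was 0.42 ± 0.030 (adjusted p = 3.88e-11). Its muscle form Cox6a2 was at -0.24 ± 0.022 with TMM and at 0.14 with total reads. Cox8a had 132, 141 and 141 in FVB and 171, 159 and 162 in Tg-RKIP hearts, a log2 fold change of 0.25 ± 0.036 (adjusted p = 2.95e-06), while its muscle form Cox8b was at -0.37 ± 0.047 with TMM and 0.01 with total reads. In the Cox7a family both forms fell, the muscle form Cox7a1 by 0.95 and the ubiquitous Cox7a2 by 0.52 on the log2 scale.

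Shares within a family do not depend on how libraries are scaled. By TPM, Cox6a1 made up 7.79, 7.40 and 7.09% of the Cox6a pair in FVB hearts, 6.88 to 7.004% in hearts labelled Tg-GRK2 and 11.3, 11.2 and 11.2% in Tg-RKIP hearts. Cox7a2 took 31.8, 30.0 and 30.6% of its family in FVB and 37.3, 36.2 and 38.7% in Tg-RKIP hearts. Cox8a took 17.3, 16.0 and 16.1% in FVB and 24.5, 21.7 and 23.3% in Tg-RKIP hearts. In all these families the share of the ubiquitous form was therefore higher in every Tg-RKIP heart than in every FVB heart, by 3.81, 6.56 and 6.71 percentage points on average. The exact two-sided permutation test gave p = 0.1 for each, the smallest that 3 against 3 can give, and 0.159 after adjustment over 27 comparisons. In hearts labelled Tg-GRK2 the shares differed from FVB by -0.49, 0.12 and 1.49 points.

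The rarer isoforms had higher shares in Tg-RKIP hearts as well. Cox4i2, a form known from lung and hypoxia, made up 0.362 ± 0.030% of its family in FVB and 0.499 ± 0.019% in Tg-RKIP hearts, although its level of 7.86 to 8.87 in FVB and 8.86 to 9.74 in Tg-RKIP hearts was not called with TMM (adjusted p = 0.167). Cox6b2, known mainly from testis, had 24, 26 and 12 reads in FVB and 43, 53 and 44 in Tg-RKIP libraries, with a log2 fold change of 0.81 ± 0.25 (adjusted p = 0.00697) that rests on few reads. The ATP synthase c subunit is encoded by Atp5g1, Atp5g2 and Atp5g3, which make the same mature protein. Atp5g2 made up 8.32, 8.21 and 8.66% of their TPM in FVB and 11.8, 11.8 and 11.5% in Tg-RKIP hearts, while Atp5g3 went from 54.2 ± 0.43% to 50.3 ± 0.24% and Atp5g1 stayed within the spread, at 37.4 ± 0.42% and 38.1 ± 0.40%. The level of Atp5g2 itself had the highest log2 fold change of complex V, at -0.09 ± 0.022 with TMM and 0.29 with total reads.

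**Figure D4:**
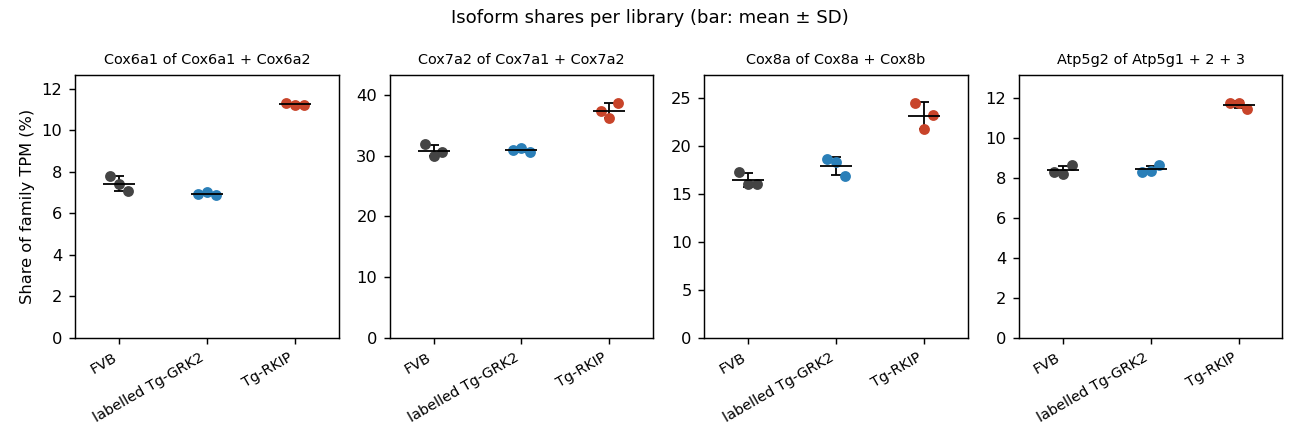
Share of the family's summed TPM in per cent (y axis, from 0) taken by Cox6a1, Cox7a2, Cox8a and Atp5g2, in the 3 libraries of each group (x axis), with mean ± s.d. In each family the 3 Tg-RKIP libraries lie above the other 6, as for Cox6a1 at 11.2 to 11.3% against 6.88 to 7.79%.

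In the libraries labelled Tg-GRK2 the differences from FVB were small and in 1 direction. With TMM, 65 of 84 members were lower and 0 higher, where 12.2% of all genes were lower and 12.2% higher, and the median log2 fold change was -0.12 against 0.00 over all genes. The deposited TPM gave 28 lower and 0 higher, where 6.05% of 13478 genes were lower and 13.1% higher. A test for a fold change of at least 1.2 passed 0 members, where only 1.21% of all genes were lower and 1.41% higher. Leaving out FVB replicate 2 gave 55 lower. The 3 libraries of each group did not overlap for 62 members that were lower, against 18.6% of all genes. The lowest value past the threshold belonged to Ndufa5, an accessory subunit of complex I, with 529.7, 576 and 525 in FVB and 443, 435 and 449 in hearts labelled Tg-GRK2 (log2 fold change -0.34 ± 0.037, adjusted p = 5.23e-07). Cox6c and Cox8b followed at -0.25 and -0.22, and the values nearest to 0 among those past the threshold belonged to Atp5a1, Cox6a2 and Atp5b, at -0.07 each. The summed levels stood at 91.7 ± 0.82% of FVB for complex I, 96.9 ± 0.73% for complex II, 92.4 ± 1.2% for complex III, 91.5 ± 0.72% for complex IV and 91.9 ± 0.98% for complex V, while in TPM complex II was at 100.4 ± 1.28%.

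These small values moved with transcript length. Among the 39 members under 600 bases the median for the libraries labelled Tg-GRK2 was -0.15, where all 447 genes of that length stood at -0.11. Between 600 and 1000 bases the medians were -0.11 and -0.09, between 1000 and 2000 bases -0.07 and -0.05, and at 2000 bases and over -0.07 for 3 members and 0.02 for all genes. Of all genes under 600 bases 30.2% were lower, against 82.1% of the members of that length. FVB replicate 2 exceeded the mean of the other FVB replicates by 0.08 in members under 600 bases and by 0.01 in those of 1000 to 2000 bases, so libraries of 1 group differed by length as well. The part of length in the result was not tested, here or in the differences between subunit roles in Tg-RKIP hearts. In Tg-RKIP hearts the trend across members ran the other way, with medians of -0.47 under 600 bases, -0.45 up to 1000, -0.73 up to 2000 and -1.16 for Atp5a1, Ndufs1 and Sdha, which are longer, while all genes of these lengths stood at 0.12, 0.17, 0.17 and -0.06.

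**Figure D5:**
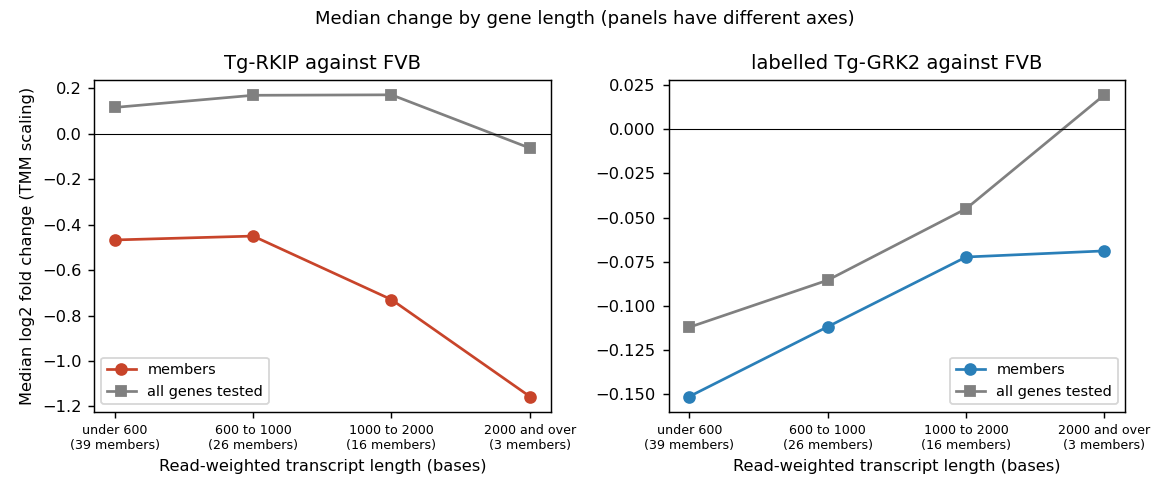
Median log2 fold change (y axis, TMM scaling, a different axis in each panel) by read-weighted transcript length (x axis, bases) for the members and for all genes tested. In Tg-RKIP hearts the members lie below all genes at every length (-0.47 against 0.12 under 600 bases), while in the libraries labelled Tg-GRK2 they lie nearer to all genes (-0.15 against -0.11 under 600 bases and -0.07 against 0.02 at 2000 bases and over).

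Tg-RKIP hearts were also compared directly with those labelled Tg-GRK2. Against the libraries labelled Tg-GRK2, 73 members were lower in Tg-RKIP hearts and 6 higher, where 36.6% of all genes were lower and 37.9% higher, and with total reads 36 were lower and 26 higher, where 18.4% of all genes were lower and 62.0% higher. The median log2 difference was -0.37 over the members and 0.02 over all genes, and the groups did not overlap for 72 members that were lower, against 37.4% of all genes. Sdha differed by -1.14 ± 0.015 (adjusted p = 4.64e-24) and Ndufs1 by -1.17 ± 0.016 (adjusted p = 6.73e-24). The 6 higher members were Cox6b2 (1.15), Cox6a1 (0.59), Ndufa4l2 (0.52), Cox8a (0.32), Cox4i2 (0.30) and Ndufb3 (0.11). Atp5g2 (0.02 ± 0.022), Cox6b1 (-0.02 ± 0.025) and Cox7a2l (0.02 ± 0.021) were not called. Both comparisons with FVB share the same control hearts.

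The subunits encoded by mitochondrial DNA fell in Tg-RKIP hearts, to lower fractions of FVB than their nuclear-encoded partners. All 13 were lower under each scaling, with a median log2 fold change of -1.31 with TMM and -0.94 with total reads, where the 84 nuclear-encoded members stood at -0.52 and -0.14. Their summed level was 0.386 of FVB for complex I, 0.418 for complex III, 0.413 for complex IV and 0.391 for complex V, against 0.695, 0.641, 0.742 and 0.654 for the nuclear-encoded subunits. The lowest was mt-Nd5, a proton-pumping subunit of complex I, at -2.04 ± 0.016. In the libraries labelled Tg-GRK2 4 of the 13 were lower and 2 higher, with a median of -0.03, where 12.2% of all genes were lower and 12.2% higher. Cyc1, Cycs and Ndufab1 are nuclear-encoded components whose names fall outside the rule, and all 3 were lower in Tg-RKIP hearts under each scaling. Cyc1, cytochrome c1 of complex III, had 632, 622 and 601 in FVB and 314, 313 and 313 in Tg-RKIP hearts (-0.94 ± 0.019, adjusted p = 4.57e-21).

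Assembly factors, which build the complexes without staying in them, were mostly lower too. With TMM, 14 of 17 were lower and 1 higher for complex I, 3 of 4 lower for complex II, 5 of 6 lower and 1 higher for complex III, 14 of 21 lower and 4 higher for complex IV, and 5 of 5 lower for complex V. With total reads the counts of lower and higher were 10 and 4, 2 and 2, 3 and 3, 6 and 9, and 4 and 0. Of all genes 37.1% were lower and 36.8% higher with TMM, and 17.1% lower and 62.6% higher with total reads. Ndufaf4 (-1.33) and Foxred1 (-0.97) led for complex I, and Taco1 (-1.15), a translational activator of mt-Co1, and Cox15 (-1.12), an enzyme of haem a synthesis, for complex IV.

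Markers of the cells in the heart also differed between the groups, in part in both directions within a list. The summed level of 14 cardiomyocyte markers ran from 59843 to 60531 in FVB hearts, from 56344 to 57336 in hearts labelled Tg-GRK2 and from 41712 to 42758 in Tg-RKIP hearts, 0.699 of FVB, and none was at 0. Of these, 12 were lower and 1 (Mybpc3) higher in Tg-RKIP hearts with TMM, and 9 lower and 5 higher with total reads, with Ryr2 (-2.07) and Myh6 (-1.35) lowest. All 8 fibroblast markers and all 7 white adipocyte markers were higher, with summed levels of 1526 to 1542 against 719.9 to 741 and of 94.7 to 100.2 against 13.8 to 14.3. Of 8 macrophage markers 7 were higher and 1 lower (257 to 261 against 133 to 137 summed), and of 8 endothelial markers 5 were higher and 3 lower (711 to 729 against 661 to 688). Of 6 tested brown adipocyte markers 4 were higher, Ucp1 by 3.08 on the log2 scale, and the lower ones were Cox8b and Ppargc1a, which are counted elsewhere in this text as well. The summed level of the brown adipocyte markers was nevertheless lower (576 to 622 against 673 to 779.5), with Cox8b at a mean of 545 against 704. In the libraries labelled Tg-GRK2, 9 cardiomyocyte markers were lower and 5 higher, 5 of 8 fibroblast markers were higher and none lower (summed level 793 to 801), and 4 of 7 white adipocyte markers were higher and none lower (22.6 to 23.6). Among macrophage markers 4 were higher and 1 lower there (142 to 145), among endothelial markers 1 was higher and 4 lower (579 to 604), and among brown adipocyte markers 2 were higher and 2 lower (604 to 676). Airway genes were present in all 6 libraries other than FVB, Scgb1a1 with 388, 510 and 395 reads in Tg-RKIP and 1190, 1085 and 1284 in those labelled Tg-GRK2, while Scgb1a1, Scgb3a2, Bpifa1 and Sftpc had 0 reads in every FVB library. Of all genes 37.1% were lower and 36.8% higher in Tg-RKIP hearts with TMM, and 17.1% lower and 62.6% higher with total reads. In the libraries labelled Tg-GRK2 12.2% of all genes were lower and 12.2% higher with TMM. The part of cell composition in the lower subunit transcripts of either group was not tested.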

How the data were processed

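Hearts of 3 mice per group were sequenced by the study as single reads of 50 bases after random-primed cDNA synthesis. The authors deposited read counts per transcript for the 9 libraries in 1 table and, per library, TPM (transcript levels per length and library size). Both use build GRCm39 per the submitters' processing notes. The aligner and counter are not given in the sources used here, and neither is the handling of strand. TPM recomputed from the deposited counts and transcript lengths matched the deposited TPM.

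Transcript counts were added up by gene name. Genes with enough reads (filterByExpr, 15504 genes) were tested across all 9 libraries with edgeR 4.0.16 (quasi-likelihood test, TMM scaling, R 4.3.3), with Benjamini-Hochberg adjustment over all genes and a threshold of 0.05. Levels are TMM-scaled RPKM, which are counts relative to transcript length and library size, or TPM. Between-library s.d. covers 3 hearts per group, while SE of log2 fold changes come from the test statistic, with the spread estimated over all 9 libraries. Within a group, squared differences between libraries were 1.26 to 1.53 times those of read sampling alone, and the common coefficient of variation was 2.86%. The small SE and adjusted p rest on this narrow spread. The 25458108 to 33447654 reads per library set the precision of low genes such as Cox6b2. On data simulated for Tg-RKIP against FVB, 88.4% of 198 changed genes among 15026 were recovered (77.6% of those at a fold of 0.8, 100% at 0.5), and 6.42% of calls were false. The simulation changed few genes, in both directions, and set a smaller spread between libraries than the 2.86% of the data. In the data 37.1% of genes were lower and 36.8% higher, so these rates check the method and are not error rates of the counts reported here. Isoform shares were compared with exact permutation tests (scipy 1.17.1). Fold changes with limma 3.58.1 used log2(TPM + 0.1) and log2(TPM + 1), and DESeq2 1.42.0 was run as an alternative. Other alternatives were DESeq2 size factors, total reads, reads without mitochondrially encoded genes, no filter, the most abundant transcript, only the groups compared, a replicate block, a fold of at least 1.2 and each library left out.

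Named genes were, per complex, those with the highest and lowest fold change and the most abundant, together with catalytic subunits, all Sdh genes, isoform family members, the 3 lowest and 3 highest past the threshold for the libraries labelled Tg-GRK2 and the 2 largest changes per related list. Ndufs4, Ndufa10, Ndufb3, Uqcrc1, Uqcrc2, Atp5d, Cox7a2l, Mybpc3 and regulators other than Ppara and Ppargc1a were named after their values were seen. 1 gene that the rule names is not reported here. The members, lists and tests were chosen with earlier results of these data known.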

Additional observations from a re-analysis of the deposited data

How the results depend on the processing

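Scaling decided how many members were called in Tg-RKIP hearts against FVB. The main counts were 77 lower and 4 higher. Total reads gave 53 lower and 16 higher, where 17.1% of all genes were lower and 62.6% higher. Reads without mitochondrially encoded genes gave 72 lower and 9 higher, where 26.7% of all genes were lower and 49.0% higher. Limma on TPM gave 44 lower and 17 higher with either pseudocount (all genes 14.6% and 66.3% with log2(TPM + 0.1)). Against the libraries labelled Tg-GRK2 (73 lower, 6 higher) total reads gave 36 lower and 26 higher (all genes 18.4% and 62.0%). Reads without mitochondrially encoded genes gave 64 lower and 12 higher (all genes 27.4% and 49.7%). Limma on TPM gave 33 lower and 26 higher with either pseudocount (all genes 17.0% and 63.3% with log2(TPM + 0.1)). The most abundant transcript gave 71 lower and 3 higher (all genes 30.2% and 28.8%). For the libraries labelled Tg-GRK2 against FVB the adjusted p under 0.05 gave 65 lower (all genes 12.2%). Limma on TPM gave 28 lower with either pseudocount (all genes 6.05% with log2(TPM + 0.1)). The most abundant transcript gave 28 lower (all genes 5.46%) and a fold of at least 1.2 gave 0 (all genes 1.21%). DESeq2 gave 56 lower, where 5.04% of all genes with reads were lower.
The summed level of complexes I to V in Tg-RKIP hearts, as a ratio to FVB, was 0.928, 0.743, 0.856, 0.992 and 0.873 with TPM and 0.784, 0.628, 0.723, 0.838 and 0.738 with reads without mitochondrially encoded genes. Leaving out the most abundant member gave 0.576 for complex II and 0.599 for complex III. For the libraries labelled Tg-GRK2, TPM gave 0.949, 1.004, 0.957, 0.948 and 0.952, so complex II changed direction. Isoform shares in Tg-RKIP hearts differed from FVB by 3.29 (Cox6a1), 8.40 (Cox8a), 1.58 (Ndufa4l2) and 3.64 (Atp5g2) points with reads in place of TPM, and by 0.299 (Cox4i2), 0.055 (Cox6b2) and 0.974 (Ndufa4l2) points with the most abundant transcript.
Among the 30 genes named by rule for Tg-RKIP hearts, signs turned for 6. With total reads they were Atp5g2 (0.29), Cox4i1 (0.043), Cox6a2 (0.14), Cox6b1 (0.18), Cox8b (0.0069) and Uqcrh (0.13), and Atp5g2 turned with reads without mitochondrially encoded genes (0.088). With limma on TPM they were Atp5g2 (0.28), Cox4i1 (0.10), Cox6a2 (0.18), Cox6b1 (0.27), Cox8b (0.0515) and Uqcrh (0.19), with the same rounded values for both pseudocounts. Of the genes named after their values were seen, Atp5d, Ndufb3 and Cox7a2l had negative values with TMM but higher mean TPM in Tg-RKIP hearts. Their mean TPM was 669, 388 and 398 there against 603, 304 and 305 in FVB hearts.
Leaving out each library in turn gave 76 to 78 lower and 4 higher for Tg-RKIP against FVB, 55 to 70 lower for the libraries labelled Tg-GRK2 and 72 to 73 lower with 5 to 6 higher between them. Replicate numbers are shared by the groups but did not pair the samples, since deviations of same-numbered libraries correlated between -0.066 and 0.045. With a replicate block 78 members were lower and 4 higher in Tg-RKIP hearts (all genes 37.0% and 36.5%). In those labelled Tg-GRK2 68 were lower (all genes 11.8%). Depth limited Cox6b2, Cox7b2 and Cox4i2, and counts of overlapping genes could not be separated.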

Other observations

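Other genes of mitochondrial metabolism were lower in Tg-RKIP hearts as well. All 13 tested genes of the tricarboxylic acid cycle were lower under each of 4 scalings, with a median log2 fold change of -1.01 with TMM and -0.64 with total reads. The lowest was Dld, the shared dehydrogenase of the 2-oxo acid complexes, with 254, 255 and 251 TMM-scaled RPKM in FVB hearts and 87.1, 90.9 and 88.4 in Tg-RKIP hearts (-1.50 ± 0.019), followed by Suclg2 (-1.41). In the libraries labelled Tg-GRK2 7 of the 13 were lower, with a median of -0.05, where 12.2% of all genes were lower. Of 10 genes of mitochondrial gene expression 9 were lower in Tg-RKIP hearts with TMM and 6 lower and 2 higher with total reads, led by Lrpprc (-0.99) and Twnk (-0.90). Of 11 genes of the outer membrane and of protein import 9 were lower and 1 higher with TMM, and 6 lower and 4 higher with total reads. With total reads 17.1% of all genes were lower and 62.6% higher, and with TMM 37.1% and 36.8%.

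Among 11 transcriptional regulators of mitochondrial genes 7 were lower and 1 (Pprc1) higher with TMM, and 5 were lower and 6 higher with total reads, the latter a share near that of all genes. Ppara, a nuclear receptor for fatty acid oxidation, had 10.4, 10.5 and 11.5 TMM-scaled RPKM in FVB, 12.0, 10.7 and 11.3 in hearts labelled Tg-GRK2 and 1.83, 2.22 and 1.87 in Tg-RKIP hearts (-2.39 ± 0.068, adjusted p = 2.87e-18). Ppargc1a, a coactivator of mitochondrial gene programmes, had 21.6, 20.5 and 21.7 in FVB, 19.0, 18.9 and 19.4 in hearts labelled Tg-GRK2 and 9.32, 8.54 and 8.89 in Tg-RKIP hearts (-1.24 ± 0.031, adjusted p = 2.56e-19). Gabpa, a subunit of GABP whose span overlaps the member Atp5j, stood at -0.78, Esrrg at -0.65 and Esrra at -0.15. Nrf1 (-0.11, adjusted p = 0.17) and Gabpb1 (0.02, adjusted p = 0.79) were not called.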
